A study of Penaeus monodon with 38 samples.

Results

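Ovarian peritrophins 1 and 2 of the black tiger shrimp Penaeus monodon were followed over 38 single-colour arrays. Their probes were found by name: a probe was taken where its comment in the array files named ovarian peritrophin 1 or ovarian peritrophin 2. This gave 7 of the 2240 probes on the array, 4 for peritrophin 1 and 3 for peritrophin 2, each spotted once. The rule itself used no measured value, though earlier results of these data were known when it was set.

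The arrays came from adult females that were wild-caught or captive-reared in ponds. Ovary and eyestalk of wild females had 12 arrays each, at preablation, 2 h and 24 h after removal of 1 eyestalk (the 3 previtellogenic stages here), and at the vitellogenic, round cortical rod and elongated cortical rod stages (the 3 vitellogenic stages here). Wild cephalothorax had 6 arrays, 1 for each of these stages, and captive ovary and captive eyestalk had 4 arrays each, 1 for each of preablation, post-ablation previtellogenic, vitellogenic and elongated cortical rod. All stages after preablation thus came from animals with 1 eyestalk removed, in both origins. For ovary, the 2 wild arrays of a stage carried pools of 4 and of 5 females and each captive array a pool of 3, so the tests speak of variation among pools rather than among animals. Captive arrays lay on slides of their own, and each slide held 1 tissue, so that captive rearing and slide cannot be told apart, nor can tissue and slide.

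Peritrophins are cysteine-rich proteins that bind chitin, first known from the peritrophic membrane that lines the insect gut. In penaeid shrimp an ovarian form is stored by the oocyte. It is a main protein of the cortical rods, the packets of extracellular material that build up at the edge of the late oocyte and are released at spawning to form the jelly layer around the egg. Thrombospondin, a secreted adhesive glycoprotein, is the other well-known cortical rod protein of these shrimp. The rods are seen only late in oocyte growth, while transcripts of these proteins are known from earlier oocytes.

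The probes were 34 or 35 bases long and are given below because their overlap shows which of them cannot tell the 2 genes apart. Names give the first and last base in the target sequence, sequences are as deposited, and capitals mark a run of 15 or more bases that a probe of the other peritrophin also carries.
Peritrophin 1 probe 8-41: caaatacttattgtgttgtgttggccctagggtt
Peritrophin 1 probe 484-517: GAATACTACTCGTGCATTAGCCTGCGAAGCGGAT
Peritrophin 1 probe 664-697: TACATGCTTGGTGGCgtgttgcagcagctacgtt
Peritrophin 1 probe 830-863: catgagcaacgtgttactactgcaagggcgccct
Peritrophin 2 probe 46-79: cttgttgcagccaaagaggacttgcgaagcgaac
Peritrophin 2 probe 484-518: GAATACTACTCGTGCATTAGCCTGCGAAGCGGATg
Peritrophin 2 probe 644-678: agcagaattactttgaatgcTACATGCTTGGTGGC
All 34 bases of peritrophin 1 probe 484-517 lay inside peritrophin 2 probe 484-518, so this pair measured both transcripts and cannot tell the genes apart. Probes 664-697 and 644-678 shared a run of 15 bases. Only 8-41 and 830-863 of peritrophin 1 and 46-79 of peritrophin 2 had no such run in common with a probe of the other gene. The full target sequences were not compared, so whether these probes are specific to 1 gene was not tested.

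Another 5 probes, for 3 ovarian expressed sequence tags (ESTs) and 1 unnamed cDNA clone, carried a run of 25 or more bases of a member. They are shown because they read nearly the same letters from other spots, with the shared run in capitals.
EST probe 480-514: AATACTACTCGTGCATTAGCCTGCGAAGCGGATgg
EST probe 488-522: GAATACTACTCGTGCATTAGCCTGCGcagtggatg
EST probe 646-680: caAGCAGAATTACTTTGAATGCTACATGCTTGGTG
EST probe 644-678: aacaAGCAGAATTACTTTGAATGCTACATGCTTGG
Clone probe 104-137: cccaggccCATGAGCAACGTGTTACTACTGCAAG
EST probe 480-514 shared 33 bases with peritrophin 1 probe 484-517 and 34 with peritrophin 2 probe 484-518. EST probe 488-522 differed from both at A27C and C30T, counted from 1 at the 5′ end of the member probe. The clone probe shared 26 bases with peritrophin 1 probe 830-863, which means that 830-863 could also be reached by the clone's transcript.

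The median intensity over all spots was 158 to 351 on ovary arrays, 72.3 to 383 on eyestalk arrays and 124 to 384 on cephalothorax arrays. The files gave no background column and no negative control. A non-specific level was therefore set on each array as the 90th percentile of 24 probes made from vertebrate genes. By that measure 30.6% to 48.8% of all probes stood above the level on the ovary arrays, 22.2% to 39.1% on the eyestalk arrays and 43.3% to 50.4% on the cephalothorax arrays. The median over a spot's pixels was at the scanner's ceiling of 65535 on 6 arrays for 664-697, 2 for 484-518 and 1 for 484-517, all of ovary, and these spots are called saturated here. The spot mean, on which the comparisons rest, was at the ceiling on 4 arrays for 664-697 and on 0 for the other members.

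Both peritrophins were bright in ovary and dim in eyestalk. In the deposited intensities, peritrophin 1 probe 8-41 ran from 2392 to 43185 over the 12 wild ovary arrays (median 12274), from 106 to 705 over the 12 wild eyestalk arrays (median 279) and from 212 to 919 over the 6 cephalothorax arrays (median 444). Peritrophin 2 probe 46-79 ran from 835 to 26665 in wild ovary (median 4696), from 69.1 to 269 in wild eyestalk (median 138) and from 108 to 402 in cephalothorax (median 274). For both probes every wild ovary array was above every array of the other wild tissues before any normalization. Against eyestalk the other 5 probes were set apart in the same way. In wild ovary 664-697 ran from 13135 to 65535, 830-863 from 2802 to 48497 and 644-678 from 2049 to 25157, against highest eyestalk values of 2750, 905 and 537. The shared pair, 484-517 and 484-518, ran from 6049 to 62684 and from 3785 to 63125 in wild ovary, against highest eyestalk values of 500 and 695. Cephalothorax overlapped wild ovary at 4 of these 5 probes before normalization, with highest values of 17483 at 664-697, 12356 at 484-517, 13149 at 484-518 and 5358 at 830-863, and not at 644-678, where its highest was 1815. In captive females, too, ovary was above eyestalk. Probe 8-41 read 1338 at preablation, 1248 after ablation, 15255 at the vitellogenic and 13236 at the elongated cortical rod stage in captive ovary, and 72.5 to 208 in the 4 captive eyestalk arrays.

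After normalization (log2 scale, quantile over the 30 wild arrays) all 7 probes were higher in wild ovary than in wild eyestalk by limma at an adjusted p under 0.05. The background was large: 28.6% of all 2240 probes were called higher and 37% lower in ovary, and 65.6% were called in either direction. Probe 8-41 had a mean log2 value of 12.82 ± 0.37 in ovary and 7.69 ± 0.64 in eyestalk (SD, n = 12 and 12), a difference of 5.13 ± 0.25 (SE), or 35.0-fold (limma, adjusted p = 1.35e-17). Only 3 of the 12 eyestalk arrays were above the non-specific level at this probe, so this fold rests largely on eyestalk values at that level. Probe 46-79 stood at 11.61 ± 0.80 against 6.37 ± 0.14 and was above the non-specific level on 0 of 12 eyestalk arrays, so its fold was at least 10.0 (limma, adjusted p = 4.74e-18). An "at least" fold is measured against that level in place of the unmeasured dim group. The 7 log2 differences ran from 5.13 to 6.34 with a median of 5.41, beside a median of -0.06 over all probes. In whole tissue, fewer cells that carry a transcript and less transcript per cell cannot be told apart.

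Eyestalk signal was measurable mainly at 664-697. That probe was above the non-specific level on 10 of 12 wild eyestalk arrays, with a median intensity of 685 and a highest value of 2750, and still 58.7-fold higher in ovary although 4 of the 12 ovary arrays were saturated (limma, log2 5.88 ± 0.40, adjusted p = 4.3e-14). Probe 830-863 was above the level on 2 of 12 eyestalk arrays. Apart from it and 8-41, the remaining 4 probes were above it on none of the 12. The bounds were at least 44.3-fold for 484-517, at least 39.9-fold for 484-518 and at least 14.4-fold for 644-678. The fold of 830-863 was 42.7, against eyestalk values that were mostly at that level.

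Cephalothorax, the head and thorax region that holds the digestive gland, stood between the other tissues in mean log2 value for every probe. All 7 probes were lower in cephalothorax than in ovary, beside 32.4% of all probes called higher in ovary and 56.2% called in either direction. Ovary exceeded cephalothorax by 20.2-fold at 8-41 (limma, log2 4.34 ± 0.31, adjusted p = 1.9e-13) and by 18.4-fold at 46-79 (log2 4.21 ± 0.30, adjusted p = 2.33e-13), the probes nearest the start of each target, which exceeded the level for non-specific signal on 5 and on only 2 of the 6 cephalothorax arrays. It exceeded cephalothorax by 7.85-fold at 664-697, 7.73-fold at 484-517 and 6.68-fold at 484-518 (limma, log2 2.74 ± 0.47, adjusted p = 1.1e-05), and by 11.6-fold and 13.3-fold at 830-863 and 644-678.

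All 7 probes were also higher in cephalothorax than in wild eyestalk, beside 21.2% of all probes called higher and 54.3% called in either direction. The difference was at least 5.98-fold at 484-518 and 7.48-fold at 664-697 (limma, log2 3.39 ± 0.47 and 2.90 ± 0.49). At 8-41 it was 1.73-fold, with an adjusted p of 0.0295 in limma that ran from 0.00395 to 0.133 over 27 alternative settings. By mean the order of tissues was thus ovary, cephalothorax, eyestalk at all 7 probes, with cephalothorax and eyestalk closest at 8-41 and 46-79. Single cephalothorax and eyestalk arrays overlapped at every probe but 484-517. There the lowest cephalothorax value was 8.70 and the highest eyestalk value 8.10, against 10.43 and 10.87 at 664-697. At 46-79 only 2 of 6 cephalothorax and 0 of 12 eyestalk arrays were above the non-specific level. The order there rests largely on values not above it. At 8-41 only 3 of 12 eyestalk arrays were above it. Spread in cephalothorax was wide, from an SD of 0.77 at 46-79 to 2.14 at 484-518 (n = 6), and is taken up with the stages below.

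In captive females all 7 probes were higher in ovary than in eyestalk, beside 15% of all probes called higher and 36.8% called in either direction. Probe 664-697 differed by 87.7-fold (limma, log2 6.45 ± 0.36, adjusted p = 2.28e-06), with 2 of 4 ovary arrays at the ceiling and 2 of 4 eyestalk arrays above the non-specific level, so neither side was fully measured. Probe 484-517 differed by at least 33.5-fold and 484-518 by at least 22.0-fold. Probes 8-41 and 46-79 had the smallest log2 differences, 3.63 ± 0.54 and 3.60 ± 0.56, with bounds of at least 6.50-fold and at least 3.71-fold. Their SDs over the 4 captive ovary arrays were 1.20 and 1.29, against 0.23 for 830-863. Those arrays differ by stage, as described further on.

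In wild ovary the peritrophin probes were bright at every stage, and none was called between phases. At probe 8-41 the pools read 12.85 and 13.47 at preablation, 13.36 and 13.63 at 2 h, 12.69 and 13.09 at 24 h, 13.70 and 13.96 at the vitellogenic, 12.93 and 13.36 at the round rod and 13.68 and 13.71 at the elongated rod stage (log2, quantile over the 16 ovary arrays). The ranges overlap, and the round rod arrays lie among the previtellogenic ones. At probe 46-79 the same pools read 12.41 and 11.37, 11.80 and 12.89, 10.63 and 13.18, 13.13 and 11.77, 12.83 and 11.46, and 11.44 and 12.47. Here the pools of 1 stage differed more than the stages did: the gap between pools reached 2.51 at 24 h (12 wild arrays normalised together), while the 6 stage means spanned 0.55. Over the 12 wild arrays 484-517 ran from 14.03 to 14.78, 484-518 from 13.77 to 14.93, 830-863 from 12.93 to 14.01 and 644-678 from 11.93 to 13.14.

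By limma 0 of 7 probes passed between the wild ovarian phases, and 0% of all 2240 did. At an unadjusted p under 0.05 there were 59 probes, and by the methods' t-test 75 unadjusted and 0 adjusted. Vitellogenic minus previtellogenic was 0.38 at 8-41 (95% interval -0.13 to 0.88), 0.14 at 46-79 (-0.86 to 1.13), 0.04 at 664-697 (-0.24 to 0.32), 0.04 at 484-517 (-0.31 to 0.39) and 0.03 at 830-863 (-0.38 to 0.44). Of these intervals only that at 46-79 extends past a doubling. The lowest unadjusted p was at 644-678, which was 0.45 lower in the vitellogenic arrays (log2 -0.45 ± 0.18, 12.43 against 12.88; limma, adjusted p = 0.976).

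Finer steps gave the same count. At 2 h against preablation 0 of 7 probes passed (0% of all probes, 43 at an unadjusted p under 0.05), with log2 differences from 0.02 to 0.45. At 24 h against preablation 0 of 7 passed (0%, 4 unadjusted), with differences from -0.26 to 0.11. The 2 rod stages against the vitellogenic stage gave 0 of 7 (0%, 42 unadjusted) and differences from -0.46 to 0.03. The test for any difference over the 6 stages gave 0 of 7 (0%, 22 unadjusted), with the lowest unadjusted p at 8-41 (adjusted p = 1 by limma). The cortical rods that give these proteins their place appeared between stages whose peritrophin signals could not be separated at this number of pools. Stage means spanned from 0.10 at 664-697, where the ceiling compresses the range, to 0.91 at 8-41.

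In captive ovary 4 of the 7 probes, 664-697 and the 3 that follow, were higher on both vitellogenic arrays than on both previtellogenic ones. This was so for 24.8% of all probes, while 1 of the 7 and 27.3% of all probes were lower on both. Probe 8-41 read 12.09 at preablation, 10.75 on the post-ablation previtellogenic array, 13.29 at the vitellogenic and 13.51 at the elongated rod stage. Probe 46-79 read 11.14, 9.44, 12.14 and 13.09 in the same order, and 484-517 read 13.51, 14.36, 15.01 and 15.24.

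Between the phases of captive ovary 2 of 7 probes rose by limma, beside 2.77% of all probes called higher, 6.7% lower and 9.46% in either direction. Neither call held with only the 2 compared groups in the fit or by the methods' t-test, each of which called 0 of 7 members and 0 of all probes (338 and 261 probes at an unadjusted p under 0.05). Probe 8-41 rose by 1.98 ± 0.41 on the log2 scale, or 3.95-fold (13.40 ± 0.15 against 11.42 ± 0.95, SD, n = 2 and 2; limma, adjusted p = 0.0107). Probe 484-517 rose by 1.19 ± 0.28, or 2.28-fold (15.12 ± 0.16 against 13.93 ± 0.60; limma, adjusted p = 0.0202). Probe 46-79 had the largest difference, 2.33 ± 0.81, and did not pass (limma, adjusted p = 0.078). Probe 664-697 was at the ceiling on both vitellogenic arrays and at least 1.55-fold above the previtellogenic ones (limma, adjusted p = 0.0819). Probe 644-678 was 0.36 ± 0.32 higher.

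Differences at 2 other probes of these transcripts were below 0 after quantile normalization and above 0 with arrays scaled to one median. Probe 484-518, which carries all the bases of 484-517, read 14.10, 14.75, 13.89 and 13.85, and was 0.56 ± 0.39 lower in the vitellogenic arrays (limma, adjusted p = 0.364). Probe 830-863 read 13.85, 14.07, 13.51 and 13.87 and was 0.27 ± 0.33 lower. With median scaling the differences were 0.69 at 484-518 and 0.93 at 830-863. Groups did not overlap at 4 probes higher and 1 lower, beside 24.8% and 27.3% of all probes. The call at 484-517 was thus not shared by the other spot that carries its letters.

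These calls rest on 2 arrays a phase. By limma, the difference at 8-41 was 1.87 (adjusted p = 0.0885) without the elongated rod array and 1.30 (0.0407) without the post-ablation previtellogenic array, and 2.64 (0.00164) without the preablation array. For 484-517 it was 0.70 (0.143) without the preablation array, 1.06 (0.147) without the elongated rod array, 1.30 (0.0566) without the vitellogenic array and 1.60 (0.003) without the post-ablation array, all by limma with the lone array taken to vary like the other groups. With arrays scaled to one median in place of quantiles the difference at 8-41 was 3.49 and that at 484-517 was 2.50 (limma, adjusted p = 0.0316 and 0.0619), and the calls over all probes moved from 62 higher and 150 lower to 58 higher and 15 lower.

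Against wild ovary of the same phase, captive previtellogenic ovary was lower at 1 of 7 probes, beside 9.02% of all probes called lower and 22.5% in either direction. Probe 8-41 stood at 11.42 ± 0.95 in captive and 13.18 ± 0.37 in wild ovary (SD, n = 2 and 6), lower by 3.39-fold (limma, log2 -1.76 ± 0.33, adjusted p = 0.00199). Both captive arrays were below all 6 wild ones. By the methods' t-test 0 of 7 passed (adjusted p = 0.0587 at 8-41). By limma the difference was -1.08 (adjusted p = 0.0393) without the post-ablation array, -2.42 (0.000744) without the preablation array and -3.00 (0.0102) with arrays scaled to one median. Under that scaling the calls over all probes were 116 higher and 135 lower, in place of 302 and 202.

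Probe 46-79 had the same difference, -1.76 ± 0.66, with wild pools that spread from 10.63 to 13.18, and did not pass (limma, adjusted p = 0.0675). By limma it was -2.04 (adjusted p = 0.0303) without the first wild 24 h pool. The other 5 probes differed by -0.56 to 0.40, none of them called. Groups did not overlap at 2 probes, 8-41 and 644-678, both lower in captive ovary, beside 14.2% of all probes. At 644-678 the highest captive value was 12.41 and the lowest wild value 12.60. Markers of other tissues were also called in the same comparison, beside 13.5% of all probes called higher and 9.02% lower. The summed log2 level of 87 eyestalk and neural probes was 14.0 to 14.9 on the 2 captive and 13.6 to 14.0 on the 6 wild arrays (17 called higher, 7 lower), and that of 3 haemocyte probes 9.001 to 9.776 and 8.46 to 8.81 (1 higher). For 33 digestive gland and gut probes the sums were 12.2 to 12.8 and 11.9 to 12.8 (8 higher, 3 lower), and for 13 muscle probes 13.2 to 14.0 and 13.8 to 14.8 (1 higher). Few neural, haemocyte and gut probes were above the non-specific level: 11 to 17, 0 to 1 and 3 to 7 on the captive arrays. On the wild arrays they were 8 to 22, 0 to 1 and 0 to 3. The 8 ovary markers, 5 of thrombospondin and 3 of a fly vitellogenin receptor, stood at 16.07 to 16.21 and 15.96 to 16.35. The 1 called lower was a receptor probe, and the receptor probes were not above the level on any ovary array. The captive preablation array had the highest neural and haemocyte sums and the smallest share of probes above the non-specific level of the ovary arrays, 30.6%. Their part in the result at 8-41 was not tested. Of the other cortical rod gene, 0 of 5 thrombospondin probes passed in this comparison (log2 differences from -0.70 to 0.04).

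In vitellogenic ovary captive and wild females were not told apart at any probe: 0 of 7 passed, beside 0.0446% of all probes (1 probe). Probe 8-41 differed by -0.16 (95% interval -0.87 to 0.55) and 46-79 by 0.43 (-0.98 to 1.84). The largest difference was 0.77 at 484-517 (0.28 to 1.26; limma, adjusted p = 0.145). The test of the difference between the captive and the wild phase effects gave 0 of 7, beside 2.14% of all probes (0.625% higher, 1.52% lower). Its estimate was 1.60 ± 0.47 at 8-41 (limma, adjusted p = 0.0821), 1.15 ± 0.32 at 484-517 (0.0757) and 2.19 ± 0.93 at 46-79 (0.223), so a phase effect in captive ovary that differs from the wild one was not shown.

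The first and the last probe of each peritrophin moved apart on some arrays. Probe 8-41 minus probe 830-863 ran from -1.27 to 0.16 over the 12 wild ovary arrays. In captive ovary it was -1.77 at preablation, -3.32 on the post-ablation previtellogenic array, -0.21 at the vitellogenic and -0.36 at the elongated rod stage. For peritrophin 2, probe 46-79 minus probe 644-678 ran from -2.38 to 0.59 over wild ovary and was -1.27, -2.78, -0.10 and -0.03 on the captive arrays. On the post-ablation array the first probe of both genes was thus lower against the last than on any wild ovary array.

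The same quantity over the other 34 targets whose first and last measured probes lie at least 300 bases apart gave a view of the arrays as a whole. A median over targets varies less than a single gene, so the sizes are not compared. Its median on each array, taken as the deviation from each target's own mean, was -0.68 on the captive preablation array and -0.57 on the post-ablation array, with -0.24 to 0.37 over the wild arrays, 0.08 on the captive vitellogenic and -0.31 on the elongated rod array. Without taking off each target's mean, the median was -0.76 on the captive preablation array. By that measure the post-ablation array, at 0.12, lay within the wild range of -0.33 to 0.45. The share of targets below their own mean was 79.4% on the captive preablation and 58.8% on the post-ablation array, beside 23.5% to 73.5% over the wild arrays. Thrombospondin did the opposite on the post-ablation array: its first probe, 1018-1051, exceeded its last, 1758-1792, by 2.13, beside 0.08 to 1.51 over wild ovary. EST probe 488-522 was also low there, at 11.84 against 13.71 to 14.42 on the other captive arrays. The array's part in the captive results at 8-41 and 46-79 was tested only by leaving it out, and what moved its first probes was not tested.

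In cephalothorax the peritrophin signal was higher before vitellogenesis than during it. Probe 664-697 read 13.49 at preablation, 13.12 at 2 h and 13.85 at 24 h, then 11.03, 10.33 and 10.59 at the vitellogenic, round rod and elongated rod stages (log2, quantile over the 6 arrays). Probe 484-518 read 11.76, 12.01 and 13.49, then 9.68, 9.25 and 8.17. Both were lower on every vitellogenic array than on any previtellogenic one. Probe 484-517 read 11.19, 11.50 and 13.35, then 10.39, 8.74 and 9.05, and 830-863 read 9.91, 9.64 and 11.86, then 8.44, 8.09 and 8.60. Probe 8-41 read 9.58, 9.43 and 8.62, then 8.19, 7.06 and 7.79, with the non-specific level between 7.26 and 7.53. These 2 end probes of peritrophin 1 differed at 24 h, where 830-863 was at its highest and 8-41 at its lowest previtellogenic value. Probe 46-79 read 7.98, 8.64 and 7.28, then 6.99, 6.42 and 6.81, and 644-678 read 8.40, 8.47 and 10.02, then 8.33, 7.25 and 7.87. In all 7 probes the 3 vitellogenic arrays lay below the 3 previtellogenic ones, beside 12.8% of all probes. At 46-79, however, 0 of 3 vitellogenic and 2 of 3 previtellogenic arrays were above the non-specific level. At 644-678 the gap was narrow, 8.33 against 8.40.

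By limma 2 of 7 probes fell, while the methods' t-test called 0 of 7 (adjusted p = 0.0511 at 664-697 and 0.107 at 484-518). These stand beside 6.12% of all probes called lower, 5.49% higher and 11.6% in either direction. Probe 664-697 was 7.13-fold lower in the vitellogenic phase (log2 -2.83 ± 0.26, SE, n = 3 and 3; limma, adjusted p = 0.00441), and 484-518 was 10.5-fold lower (log2 -3.39 ± 0.58; limma, adjusted p = 0.018). Probe 484-517 differed by -2.62 ± 0.69 (adjusted p = 0.0663), 830-863 by -2.09 ± 0.59 (0.0794), 8-41 by -1.54 ± 0.38 (0.0524), 46-79 by -1.23 ± 0.36 (0.0891) and 644-678 by -1.15 ± 0.51 (0.248), none of them called by limma. Each of 2 slides held both phases, and within them 664-697 differed by -2.86 and -2.79 and 484-518 by -3.70 and -2.77.

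Leaving out any 1 of the 6 arrays kept the call at 664-697 (log2 -3.07 to -2.62). The adjusted p at 484-518 rose to 0.0631 without the elongated rod array, 0.0512 without the 2 h array and 0.0573 without the round rod array, and 5 of 7 probes passed without the 24 h array. Among the near-copies, EST probe 480-514 was 12.6-fold lower (log2 -3.65 ± 0.45, adjusted p = 0.00741) and clone probe 104-137 11.4-fold lower (log2 -3.51 ± 0.32, adjusted p = 0.00441, both by limma). The remaining near-copies were also lower in mean: EST probe 488-522 (8.59 against 11.33), 646-680 (7.06 against 8.71) and EST probe 644-678 (6.75 against 8.32). At 488-522 the phases overlapped, with a highest vitellogenic value of 9.98 and a lowest previtellogenic value of 9.60. On the vitellogenic arrays 646-680 was above the non-specific level on 1 of 3 and EST probe 644-678 on 0 of 3. The members' median difference was -2.09, beside 0.05 over all probes.

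The other cortical rod gene moved with the peritrophins in cephalothorax. All 5 thrombospondin probes were lower in the vitellogenic arrays (log2 -3.37 to -1.81), and 2 of the 5 passed, 1018-1051 by 10.3-fold (log2 -3.37 ± 0.50, adjusted p = 0.0125) and 1758-1792 (log2 -2.27, adjusted p = 0.0182, both by limma). The summed level of the ovary markers, these 5 probes and 3 of a fly vitellogenin receptor, was 12.9 to 14.0 before vitellogenesis and 10.6 to 11.4 during it, against 15.8 to 16.4 in wild ovary on that tissue's own scale (log2 of the sum). Each cephalothorax array had 3 to 5 of the 8 over its non-specific level, and the 3 receptor probes were over it on none. The part of ovarian tissue in the dissected cephalothorax in this result was not tested.

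Yolk moved the other way in the same 6 arrays. The yolk list held 5 probes of the shrimp's vitellogenin, the yolk precursor, and the same 3 fly receptor probes as the ovary markers. It had 5 of 8 probes higher and 0 lower in the vitellogenic phase (limma, adjusted p under 0.05), with a summed log2 level of 9.97 to 10.2 before and 16.2 to 16.4 during it. Muscle markers stood at 16.2 to 16.8 and 16.7 to 16.9, with 2 of 13 called higher, and digestive gland and gut markers at 11.9 to 12.5 and 12.3 to 13.1, with 0 of 33 called. Haemocyte markers stood at 9.88 to 10.4 and 10.5 to 11.1, with 1 of 3 called higher. Protein disulfide isomerase, also brighter in ovary than in the other wild tissues, stood at 9.27 to 10.3 and 10.1 to 11.4. Of its 3 probes 1 to 2 were above the non-specific level.

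The 24 h cephalothorax array repeated the split between first and last probes. Probe 8-41 minus 830-863 was -3.24 on it and -1.03 to -0.21 on the other 5 arrays, and 46-79 minus 644-678 was -2.74 against -1.34 to 0.17. Thrombospondin's first minus last probe was 2.67, the highest of the 6 arrays. The median deviation over the 33 other targets was -0.19 there, and -0.23 to 0.25 on the other 5 arrays, and 69.7% of the targets were below their own mean there, beside 24.2% to 66.7%. What set this array apart was not tested.

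In eyestalk no peritrophin probe was called between phases or origins. Vitellogenic against previtellogenic wild eyestalk gave 0 of 7, beside 0.625% of all probes, and captive against wild eyestalk gave 0 of 7 in the previtellogenic phase (0.714%) and 0 of 7 in the vitellogenic phase (0%). The largest phase difference was at 664-697, 0.86 ± 0.32 higher in the vitellogenic arrays (9.23 ± 0.67 against 8.36 ± 0.61, SD, n = 6 and 6; limma, adjusted p = 0.494). Since 4 of the 7 probes did not exceed the non-specific level in wild eyestalk, differences there could not be measured for them. Probes 8-41 and 830-863 exceeded it on only 3 and 2 of the 12 wild arrays, so their differences rest largely on values not above it.

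Spots with the same letters set a limit to what these values can resolve. Over the 16 ovary arrays 484-517 minus 484-518 was 0.21 ± 0.64 (mean and SD) and ran from -0.72 to 1.38. Against EST probe 480-514 the difference was 0.23 ± 0.66 for 484-517 and 0.01 ± 0.42 for 484-518. The highest values of 484-517 minus 484-518, 1.38 and 1.12, were on the 2 captive vitellogenic arrays behind the call at 484-517, and the next was 1.01 on a wild vitellogenic array.

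The 7 probes shared little of their variation within ovary. Over the 16 ovary arrays the 21 pairs of probes had Pearson r from -0.37 to 0.84 with a median of 0.15, and 8 pairs were below 0. These correlations describe arrays that share slides and the ceiling, and no test was made. Over all 38 arrays, where the tissue difference dominates, the probe most like the mean of each peritrophin was the same ovarian EST probe 100-133 (r = 0.991 for peritrophin 1 and 0.995 for peritrophin 2). Thrombospondin probe 1530-1564 was 5th for peritrophin 2 (r = 0.991) and 10th for peritrophin 1 (r = 0.985).

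Within ovary the likeness to thrombospondin was weak, with r from -0.20 to 0.28 for peritrophin 1 and from -0.30 to 0.49 for peritrophin 2 over its 5 probes. The 5 probes most like each peritrophin there were others. For peritrophin 1 they had r from 0.83 to 0.88 and only 1 had a gene name, pigment-dispersing hormone 3 of Marsupenaeus japonicus, an eyestalk peptide (probe 283-317, r = 0.84), which ranged over 0.58 in log2. For peritrophin 2 they were 3 ovarian EST probes, 1 hepatopancreas EST probe and 1 unnamed clone (r from 0.82 to 0.88), and peritrophin 1 probe 664-697, which shares 15 bases, had r = 0.82.

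Of the lists beside the peritrophins, thrombospondin followed the same tissue order. Its 5 probes were all higher in wild ovary than in eyestalk (log2 4.88 to 6.48) and than in cephalothorax (3.40 to 3.86). Over all probes 28.6% and 32.4% were called higher in ovary in these comparisons. Between phases 0 of 5 passed in wild or captive ovary, beside 0% and 9.46% of all probes. Ovary also exceeded both other wild tissues at 3 of 3 probes of protein disulfide isomerase, an enzyme that helps cysteine-rich proteins fold, with log2 differences of 1.31 to 1.71 against eyestalk. The isomerase was lower in captive than in wild previtellogenic ovary at 2 of 3 probes (log2 -1.98 to -0.84 over the 3), beside 9.02% of all probes. No probe of the array matched the words for other peritrophins, chitin or mucin.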

How the data were processed

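RNA pools from ovary, eyestalk and cephalothorax were measured on 38 single-colour arrays of 2240 probes. Per the file headers, the deposited values are foreground mean and median spot intensities read by the authors' scanner software, with no background column. The authors' processed value table equals the mean intensity within 0.01 for 100% of its 85082 values, so it is not normalised further. The number of arrays limits precision.

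Mean intensities were corrected with normexp (offset 50), transformed to log2 and brought to common quantiles within each set of arrays compared, and limma 3.58.1 (R 4.3.3) was fitted to all 2240 probes with Benjamini-Hochberg adjustment and a threshold of 0.05. Tables used pandas 2.3.3 and numpy 2.4.6. The fit was tested on simulated data. The design's t-tests were run as the methods' t-test. Alternatives were median scaling, the spot median, no normexp, dim probes left out, only the compared groups, slide or replicate as a block, matched stages and each array left out.

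Members and lists were chosen with earlier results of these data known. Named probes were all members, lists found by words in the probe comments and the 5 probes most correlated with each gene. The non-specific level, the 90th percentile of 24 vertebrate probes, follows an earlier analysis of these data. Same-numbered wild replicates did not pair by the rule used, which asks every pair to exceed 0.1 (median r of deviations 0.18 in ovary, -0.32 to 0.64, and 0.37 in eyestalk, -0.14 to 0.58, over 15 pairs each).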

Additional observations from a re-analysis of the deposited data

Results flagged for a closer look

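In 28 groups of 4 to 10 arrays, 3 had an array far from the others by Dixon's test, which chance alone gives in about 1 of 20 groups. All 3 were in wild eyestalk, where these probes were mostly at or below the non-specific level. The second 24 h pool read 6.27 at peritrophin 1 probe 484-517, against 6.98 to 7.31 on the other 5 previtellogenic arrays, and 6.39 at peritrophin 1 probe 8-41, against 7.56 to 7.97. The first pool of the vitellogenic stage read 7.98 at peritrophin 2 probe 484-518, against 7.16 to 7.46 on the other 5 vitellogenic arrays.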

How the results depend on the processing

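Over all alternatives 170 counts of called members stayed within 1.5 times the reported one and 7 moved. For the captive ovary phases the count of 2 became 1 with arrays scaled to one median and 0 with only the 2 compared groups or the methods' t-test. For captive against wild previtellogenic ovary the count of 1 became 3 with median scaling and 0 with the t-test. For the cephalothorax phases the count of 2 became 5 with dim probes left out and 0 with the t-test. Leaving out 1 array gave 0 to 2, 1 to 2 and 1 to 5 members in these comparisons, 0 to 1 for the difference of phase effects and 6 to 7 for cephalothorax against eyestalk. With replicate number as a block the counts were 7 for wild ovary against eyestalk and 0 for the wild phase and stage comparisons, and the block changed no call of a member.

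Uncalled differences changed sign in 18 cases, and the cause was not tested. With median scaling, probes 830-863 and 484-518 became 0.93 and 0.69 for the captive phases, -0.52 and -0.49 for captive against wild previtellogenic ovary, and 0.53 and 0.20 for the difference of phase effects. With wild stages matched, 830-863 became -0.13 for captive against wild vitellogenic ovary. Leaving out 1 array, the wild ovary phase difference ran from -0.048 to 0.12 at 484-517, -0.019 to 0.10 at 664-697, -0.098 to 0.14 at 830-863, -0.15 to 0.37 at 46-79 and -0.053 to 0.23 at 484-518. The captive phase difference at 644-678 ran from -0.078 to 0.80. Captive against wild previtellogenic ovary ran from -0.80 to 0.038 at 484-517 and -0.029 to 0.58 at 484-518, and the vitellogenic comparison from -0.079 to 0.28 at 830-863, -0.048 to 0.91 at 46-79 and -0.19 to 0.69 at 644-678.

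Over all probes, calls between captive phases went from 212 to 73 with median scaling, 42 with dim probes left out and 0 with only 2 groups or the t-test. Calls of captive against wild previtellogenic ovary went from 504 to 251 with median scaling, 174 with dim probes left out or the t-test and 207 with only 2 groups, and those between cephalothorax phases from 260 to 168 with median scaling. The difference of phase effects went from 48 to 0 with median scaling. Ceiling values limit 664-697 in ovary. Signal not above the non-specific level on most or all eyestalk arrays limits every other member probe in that tissue.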
